A study of Mus musculus with 6 samples.

Results

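Transcripts of 39 genes that serve the unfolded protein response, the ATF4 response and the cytosolic heat shock response were followed in mouse B cell precursors with and without Dusp6. The genes were chosen by name from these pathways, with earlier results of these data known. They were sorted into 12 genes of the ATF4 arm, 18 genes of the XBP1/ATF6 arm and 9 genes of the heat shock arm. A gene was measured where a probe set, the group of array probes that reports 1 transcript, carried only that gene's symbol, and the probe set with the highest mean over the 6 arrays stood for it. This gave 38 of the 39 genes among 19938 genes in all, and Hsf1, the master factor of the heat shock response, was not analysed here. No gene was removed for a low signal.

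The KO cells were BCR-ABL1 transformed pre-B cells from Dusp6 KO mice (3 arrays), and they were compared with BCR-ABL1 transformed pre-B cells from Dusp6 WT mice (3 arrays). Both genotypes carry BCR-ABL1, the leukaemic kinase that arises from the Philadelphia translocation, and both have the strain label C57Bl/6-SV129j. Dusp6 is a phosphatase that switches off the kinase ERK, so the comparison asks how these stress pathways stand in leukaemic cells without that brake. The labels name no stress treatment, no age, no deleted exon and no number of animals or clones. Separate cultures are not mentioned either, so a p-value here reflects the spread among 3 arrays, and that spread may be purely technical.

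The unfolded protein response starts at 3 sensors in the membrane of the endoplasmic reticulum (ER). IRE1alpha, the product of Ern1, splices Xbp1 mRNA into the form that encodes an active transcription factor, and ATF6 is cut to release a transcription factor of its own. Both factors raise ER chaperones, protein disulfide isomerases and the machinery that discards misfolded proteins. PERK, the product of Eif2ak3, phosphorylates the translation factor eIF2alpha, which slows protein synthesis and favours translation of ATF4. Other kinases that sense amino acid shortage or double-stranded RNA reach the same point, and ATF4 then raises genes for amino acid supply and, under lasting stress, for cell death. The heat shock response is separate: HSF1 raises chaperones of the cytosol. In the B lineage, Xbp1 is best known for building the secretory apparatus of plasma cells, and Ern1 is also known to act during early B cell development.

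Values are log2 signals as the authors deposited them, so a difference of 1 is a doubling. A gene was called higher or lower at an adjusted p under 0.05 in limma, a linear model with moderated variances fitted to all 19938 genes, with Benjamini-Hochberg adjustment. By this rule 9.66% of all genes were called higher in KO arrays and 10.2% lower, together 19.8%. Dusp6 itself read 9.04, 9.06 and 9.15 on the KO arrays, against 12.36, 12.46 and 12.49 on the WT arrays, and where its probes lie relative to the deletion is not stated. All 12 measured precursor B cell markers lay above the median gene on every array. Markers of T and NK cells (8 of 9), myeloid cells (9 of 10), erythroid cells and megakaryocytes (6 of 7) and stromal cells (7 of 10) mostly lay below it on every array. Of these, Cd8b1 and Lyz2 rose, and the erythroid and stromal lists had 0 genes called by limma, also at an unadjusted p under 0.05. At that unadjusted p the T and NK list had 3 of 9 genes higher and 0 lower. The myeloid list had 1 of 10 higher and 0 lower, against 14.9% higher and 15.6% lower of all genes. The median difference, KO minus WT, was 0.113 in the T and NK list and 0.013 in the myeloid list.

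The 3 arms gave different balances of higher and lower genes in the KO cells. Eif2ak3, whose product PERK favours translation of ATF4, was placed in the XBP1/ATF6 arm with the other sensors, and its rise counts there. In the XBP1/ATF6 arm 7 of 18 genes rose and 0 fell, which is 38.9% higher against a background of 9.66%. In the ATF4 arm the balance was the opposite, with 6 of 12 genes lower and 1 higher (50% lower, against 10.2% of all genes). The heat shock arm gave 1 gene higher and 1 lower of 8 measured (12.5% each). Counts for the XBP1/ATF6 arm at an unadjusted p under 0.05 (limma) were 9 higher and 0 lower, against 14.9% and 15.6% of all genes, and no other tool was run. The median log2 difference, KO minus WT, was 0.13 in the XBP1/ATF6 arm, −0.15 in the ATF4 arm and −0.02 in the heat shock arm, beside 0.002 over all genes. All genes of the XBP1/ATF6 and ATF4 arms had signals above the median gene on every array, and of the 9519 genes that did, 13.3% were called higher and 16.3% lower. Only 4 of the 8 heat shock genes did, and 3 lay below the median gene on every array. The heat shock arm is thus not matched in signal to the other arms. With genes below the median left out before adjustment, 1769 of 9969 genes were higher and 2206 lower, and the XBP1/ATF6 arm counted 8 higher and the ATF4 arm 6 lower. In the XBP1/ATF6 arm 17 of 18 differences were above 0, against 3 of 12 in the ATF4 arm and 50.8% of all genes. All 3 KO arrays lay above all 3 WT arrays in 13 of the 18 XBP1/ATF6 genes, a pattern found in 17.3% of all genes, and all 3 KO arrays lay below all 3 WT arrays in 6 of the 12 ATF4 genes, against 18.4% of all genes. The difference between the arms was not tested as such, and the genes were chosen with earlier results known, so these shares are descriptions.

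**Figure D1:**
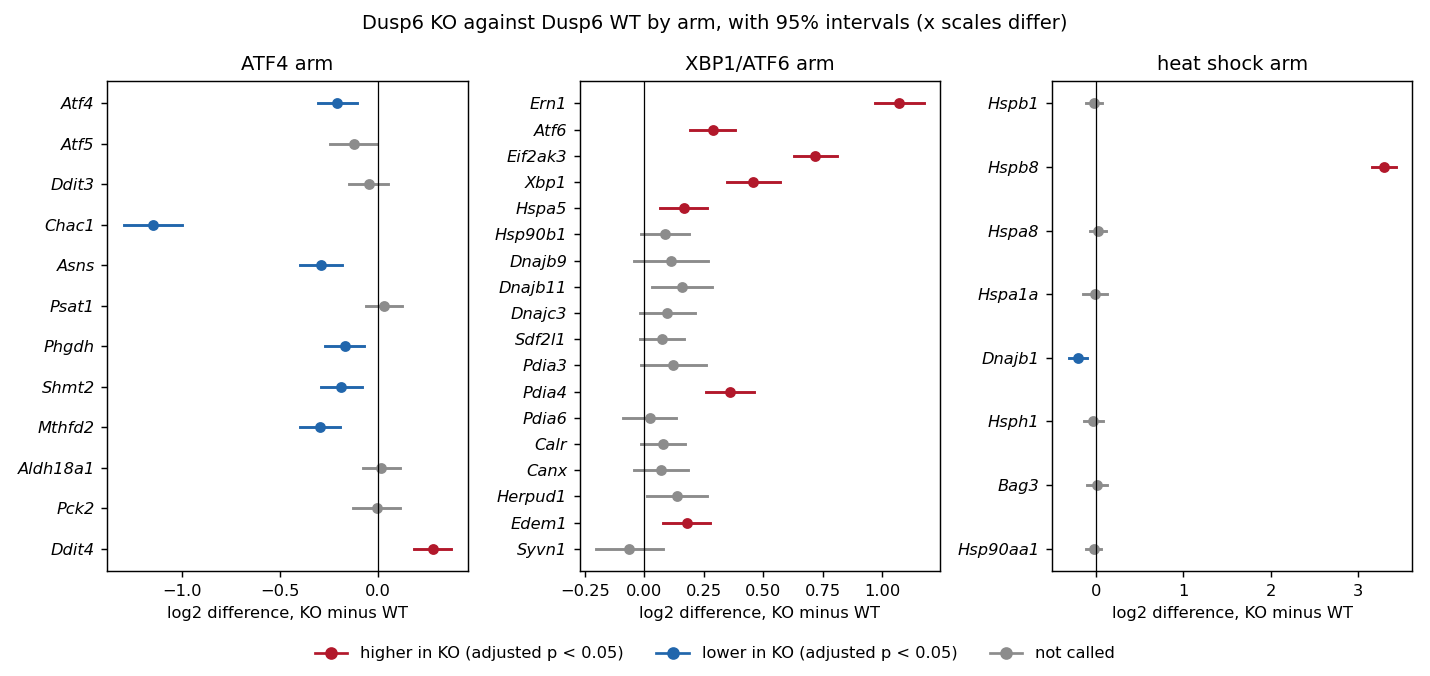
Log2 difference, Dusp6 KO minus Dusp6 WT (x axis, 95% limma interval as a line), for each of the 38 measured genes, with 1 panel per arm and x scales that differ. Red marks genes called higher in KO (7 in the XBP1/ATF6 arm), blue marks genes called lower (6 in the ATF4 arm) and grey marks genes not called. Hspb8 alone lies beyond 3.

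All 3 sensor genes of the ER membrane rose, and Ern1 and Eif2ak3 had the largest rises of the XBP1/ATF6 arm by the brightest probe sets. Ern1 read 11.46, 11.44 and 11.55 on KO arrays, against 10.41, 10.44 and 10.38 on WT arrays. It was 2.1-fold higher, with a log2 difference of 1.07 ± 0.045 (SE; limma adjusted p = 2.5e-07), and the gap between the genotypes was many times the spread within either. Eif2ak3 read 11.40, 11.38 and 11.44 on KO arrays, against 10.68, 10.68 and 10.69 on WT arrays, and was 1.65-fold higher (0.72 ± 0.04; adjusted p = 1.5e-06). Atf6 moved less, with 11.78, 11.82 and 11.79 on KO arrays and 11.53, 11.47 and 11.53 on WT arrays (0.29 ± 0.042; adjusted p = 0.00096). In none of the 3 genes did the genotypes overlap. Of the sensor genes, Ern1 thus had the largest difference and Atf6 the smallest, and their 95% intervals (0.97 to 1.17 for Ern1, 0.63 to 0.81 for Eif2ak3 and 0.19 to 0.38 for Atf6) were apart.

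Xbp1, whose mRNA is the substrate of the Ern1 product, rose by 0.46 on the log2 scale. Its signal was 13.37, 13.36 and 13.36 on KO arrays, against 12.99, 12.83 and 12.90 on WT arrays, and the lowest KO array stood above the highest WT array. This was a 1.37-fold rise (adjusted p = 0.00014, limma). The deposited table holds 1 value for Xbp1, which does not separate the spliced from the unspliced mRNA, so IRE1alpha activity was not measured.

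The bases before the transcription start of the 4 members with the largest differences by the brightest probe sets are shown here, so that the genes that differed most can be inspected. They are RefSeq sequences of build GRCm38.p6, 250 bases that end at the base before the annotated start, read along the gene's own strand: Hspb8 at chr5:116422865-116423114 (minus strand), Chac1 at chr2:119350992-119351241 (plus strand), Ern1 at chr11:106487797-106488046 (minus strand) and Eif2ak3 at chr6:70844265-70844514 (plus strand). Capitals mark an ATF4-type motif, described with the ATF4 arm, which only Chac1 of these 4 holds.
Ern1: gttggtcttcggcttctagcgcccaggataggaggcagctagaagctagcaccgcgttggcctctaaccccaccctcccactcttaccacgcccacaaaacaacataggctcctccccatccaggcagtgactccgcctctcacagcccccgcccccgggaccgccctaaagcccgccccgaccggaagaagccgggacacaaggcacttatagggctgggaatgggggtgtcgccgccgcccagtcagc
Eif2ak3: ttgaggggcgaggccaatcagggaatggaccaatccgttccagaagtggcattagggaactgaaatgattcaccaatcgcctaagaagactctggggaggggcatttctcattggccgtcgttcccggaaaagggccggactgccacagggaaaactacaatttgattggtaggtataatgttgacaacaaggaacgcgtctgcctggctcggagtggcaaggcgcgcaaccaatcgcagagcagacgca
Chac1: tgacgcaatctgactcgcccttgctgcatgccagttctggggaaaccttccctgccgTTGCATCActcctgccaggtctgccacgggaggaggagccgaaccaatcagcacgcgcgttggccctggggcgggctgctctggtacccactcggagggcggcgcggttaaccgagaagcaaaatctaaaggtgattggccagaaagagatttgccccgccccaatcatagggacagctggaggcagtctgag
Hspb8: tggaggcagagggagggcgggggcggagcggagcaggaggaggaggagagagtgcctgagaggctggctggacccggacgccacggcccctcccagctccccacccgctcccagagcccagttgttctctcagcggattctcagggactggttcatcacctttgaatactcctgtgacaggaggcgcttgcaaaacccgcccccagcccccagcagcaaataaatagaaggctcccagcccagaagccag

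Among all genes 9.66% were called higher, and 13.3% among those above the median gene on every array. Of the 14 genes of this arm that are neither sensors nor Xbp1, 3 rose. Pdia4, a protein disulfide isomerase, had the largest rise among them. It read 13.01, 13.09 and 13.08 on KO arrays, against 12.68, 12.67 and 12.74 on WT arrays, a 1.28-fold rise (0.36 ± 0.045, SE; limma adjusted p = 0.00035). A second, dimmer Pdia4 probe set, not used for the count, was also higher, with 8.67, 8.76 and 8.79 on KO arrays and 7.83, 7.71 and 7.78 on WT arrays. Its difference of 0.97 (adjusted p = 9.5e-05 over all probe sets, limma) is larger than that of the brightest one, so the size of the Pdia4 rise is uncertain.

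Hspa5 encodes BiP, the main ER chaperone of the HSP70 family, which also holds the sensors inactive. Its signal was 13.30, 13.33 and 13.39 on KO arrays, against 13.17, 13.16 and 13.19 on WT arrays (0.16 ± 0.043; adjusted p = 0.025). The groups did not overlap, but the call was lost without KO replicate 2 (adjusted p = 0.052), KO replicate 3 (0.098), WT replicate 1 (0.082), WT replicate 2 (0.076) or WT replicate 3 (0.057). Edem1, a lectin that hands misfolded glycoproteins to degradation, read 12.25, 12.21 and 12.24 on KO arrays, against 12.07, 11.99 and 12.10 on WT arrays (0.18 ± 0.044; adjusted p = 0.019), and lost its call without KO replicate 3 (0.061) or WT replicate 2 (0.071).

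The other 11 genes of this arm were not called, and 10 of them had a difference above 0. Among ER chaperones and their helpers, the difference was 0.16 for Dnajb11 (adjusted p = 0.079), 0.11 for Dnajb9 and 0.10 for Dnajc3, further BiP cochaperones, 0.09 for Hsp90b1, the ER member of the HSP90 family, and 0.07 for Sdf2l1. Dnajb11, also a cochaperone of BiP, passed the threshold without KO replicate 1 (adjusted p = 0.027). Pdia3 and Pdia6, which form disulfide bonds, differed by 0.12 and 0.02, and the lectin chaperones Calr and Canx by 0.08 and 0.07. Herpud1, a membrane component of ER-associated degradation, differed by 0.14 (adjusted p = 0.13) and passed without KO replicate 2 (0.024). Syvn1, the ubiquitin ligase of that machinery, was the 1 member with a difference below 0 (−0.06, 95% interval −0.20 to 0.08). The largest upper bound among these 11 genes was 0.28, for Dnajb11, so for none of them did the interval reach the 0.36 of the brightest Pdia4 probe set.

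**Figure D2:**
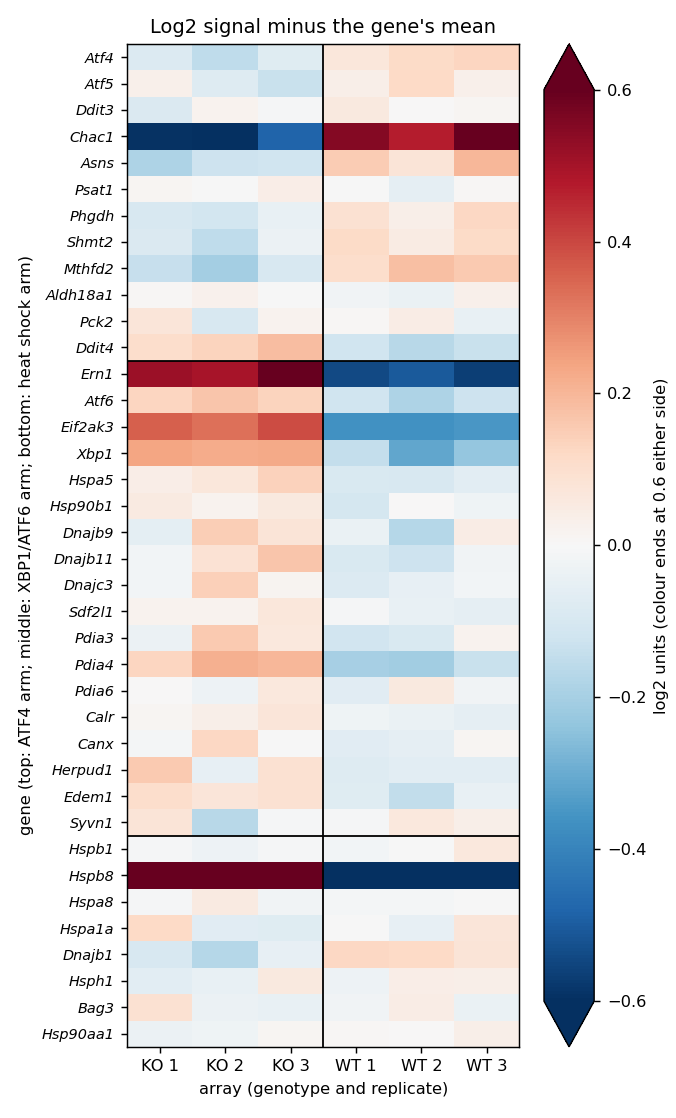
Log2 signal of each member on each array minus the gene's mean over the 6 arrays (colour, ends at 0.6 either side), with KO arrays on the left and WT arrays on the right. The middle block, the XBP1/ATF6 arm, is mostly red on KO arrays and blue on WT arrays; in the top block, the ATF4 arm, Atf4, Chac1, Asns, Phgdh, Shmt2 and Mthfd2 show the opposite.

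Several promoters of the XBP1/ATF6 arm hold the letters of the ER stress response element (ERSE), the motif through which ATF6 and XBP1 are known to act together with the factor NF-Y. RefSeq promoter windows, 250 bases before to 50 bases after a start, were found for 35 of the 39 genes, and the 4 others are Atf6, Hspa8, Hsp90aa1 and Hsf1. The letters searched on both strands were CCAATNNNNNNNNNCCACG. They occur in 39 of 32851 mouse windows (0.12%) and in 7 of the 17 genes of this arm that have a window, but in 0 of 12 genes of the ATF4 arm and 0 of 6 of the heat shock arm. The sites are printed because 7 genes share them and only 1 of the 7, Hspa5, was called; the other called members with a window, Ern1, Eif2ak3, Xbp1, Pdia4 and Edem1, do not hold these letters in this window. The median difference was 0.079 over the 7 genes with the letters (range −0.06 to 0.16) and 0.17 over the 10 without (range 0.07 to 1.07), given as a description. Each line gives the site in capitals with 12 bases on either side, 5′ to 3′ on the strand that reads CCAAT first, in GRCm38.p6.
Hspa5, chr2:34772013-34772055, plus strand: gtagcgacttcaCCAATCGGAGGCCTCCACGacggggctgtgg
Hsp90b1, chr10:86705626-86705668, minus strand: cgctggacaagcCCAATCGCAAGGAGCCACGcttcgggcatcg
Hsp90b1, chr10:86705521-86705563, plus strand: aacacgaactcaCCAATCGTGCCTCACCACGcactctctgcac
Dnajc3, chr14:118937815-118937857, plus strand: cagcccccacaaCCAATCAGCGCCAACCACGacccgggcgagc
Pdia6, chr12:17266479-17266521, plus strand: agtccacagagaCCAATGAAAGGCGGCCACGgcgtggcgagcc
Calr, chr8:84847063-84847105, plus strand: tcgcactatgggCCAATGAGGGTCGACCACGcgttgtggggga
Canx, chr11:50325788-50325830, minus strand: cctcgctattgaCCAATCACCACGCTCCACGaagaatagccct
Syvn1, chr19:6046520-6046562, plus strand: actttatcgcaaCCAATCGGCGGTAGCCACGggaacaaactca

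The sites lie between positions −212 and −26, counted back from the first transcribed base, and Hsp90b1 has a pair of them on opposite strands. The core of the unfolded protein response element, TGACGTGG, shares the CCACG end of the ERSE on its other strand. It occurs in 0.68% of windows and in none of the 35 members' windows.

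Other genes of the ER pathway also gave more rises than falls. Of 42 measured genes for ER folding, translocation and secretion, 10 rose and 0 fell (23.8% higher, beside 9.66% of all genes). Their median difference was 0.099. At an unadjusted p under 0.05 (limma) 18 were higher and 1 lower, against 14.9% and 15.6% of all genes. The largest rises were those of Srpr (0.35 ± 0.051, SE; adjusted p = 0.0011), the receptor of the signal recognition particle, Sec24d (0.32 ± 0.049; 0.0016), a coat protein of ER export vesicles, Sec11c (0.31 ± 0.06; 0.0054), a signal peptidase subunit, and Hyou1 (0.29 ± 0.047; 0.0021), an ER chaperone. With 1 array left out the number that rose was 6 to 9 (6 without KO replicate 3 or without WT replicate 2), and 0 fell each time.

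Of 21 measured genes of ER-associated degradation, 6 rose and 3 fell (28.6% and 14.3%, beside 9.66% and 10.2% of all genes). Their median difference was 0.064. Selenos (0.34; adjusted p = 0.00086) and Sel1l (0.28; 0.00078), a partner of the Syvn1 ligase, led those that rose. Erlec1 (0.26; 0.031) and Selenok (0.21; 0.032) also rose, but Erlec1 lost its call without KO replicate 2 (adjusted p = 0.103), KO replicate 3 (0.079), WT replicate 1 (0.086) or WT replicate 2 (0.109), and Selenok without the same 4 arrays (0.096, 0.116, 0.066 and 0.109). With 1 array left out 3 to 5 genes of this list rose (3 without KO replicate 3 or without WT replicate 1). The 3 genes that fell were Aup1, Ufd1 and Rnf139, but the count that fell was 0 without WT replicate 1 and 1 without any other array.

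Among 16 further sensors and factors of ER stress, 5 rose and 0 fell (31.2% higher, beside 9.66% of all genes). Their median difference was 0.045. At an unadjusted p under 0.05 (limma) 5 were higher and 0 lower, against 14.9% and 15.6% of all genes. Bhlha15, a transcription factor of secretory cells that XBP1 is known to induce, read 9.04, 9.03 and 9.16 on KO arrays, against 8.65, 8.68 and 8.73 on WT arrays (0.39 ± 0.049, SE; adjusted p = 0.0004). Creb3l2 (0.26), a membrane-bound relative of Atf6, Crebrf (0.24) and Mbtps1 (0.21), the protease that makes the first cut in ATF6, had adjusted p-values from 0.0021 to 0.0095. All 4 kept their calls in each setting run.

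Markers of plasma cells, the B lineage cells with the largest ER, were measured beside these genes. Of 7 markers, 2 rose and 1 fell (28.6% and 14.3%, beside 9.66% and 10.2% of all genes). Jchain, the joining chain of secreted antibody, differed by 0.96, Slamf7 by 0.47 and Sdc1 by −0.28 (adjusted p = 5.1e-06, 0.0019 and 0.02, limma). Prdm1, the defining factor of plasma cells, differed by 0.0024, and Irf4 differed by −0.01. The mean log2 signal of the list was 10.01 to 10.13 on KO arrays and 9.90 to 9.96 on WT arrays, while 4 of its 7 differences were below 0 and their median, that of Tnfrsf17, was −0.00033. Of 12 precursor B cell markers 6 fell, Dntt most (−1.42), and 1 rose (50% and 8.33%, beside 10.2% and 9.66% of all genes). Their mean log2 signal was 12.28 to 12.31 on KO arrays and 12.53 to 12.55 on WT arrays. With 1 array left out the plasma cell list gave 2 higher each time, and 0 lower without WT replicate 1 or WT replicate 3; the precursor B cell list gave 5 or 6 lower, and 0 higher without KO replicate 2, KO replicate 3, WT replicate 1 or WT replicate 3. In these bulk samples more cells of a type and more RNA per cell cannot be told apart, and the part of either marker list in the result was not tested.

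**Figure D3:**
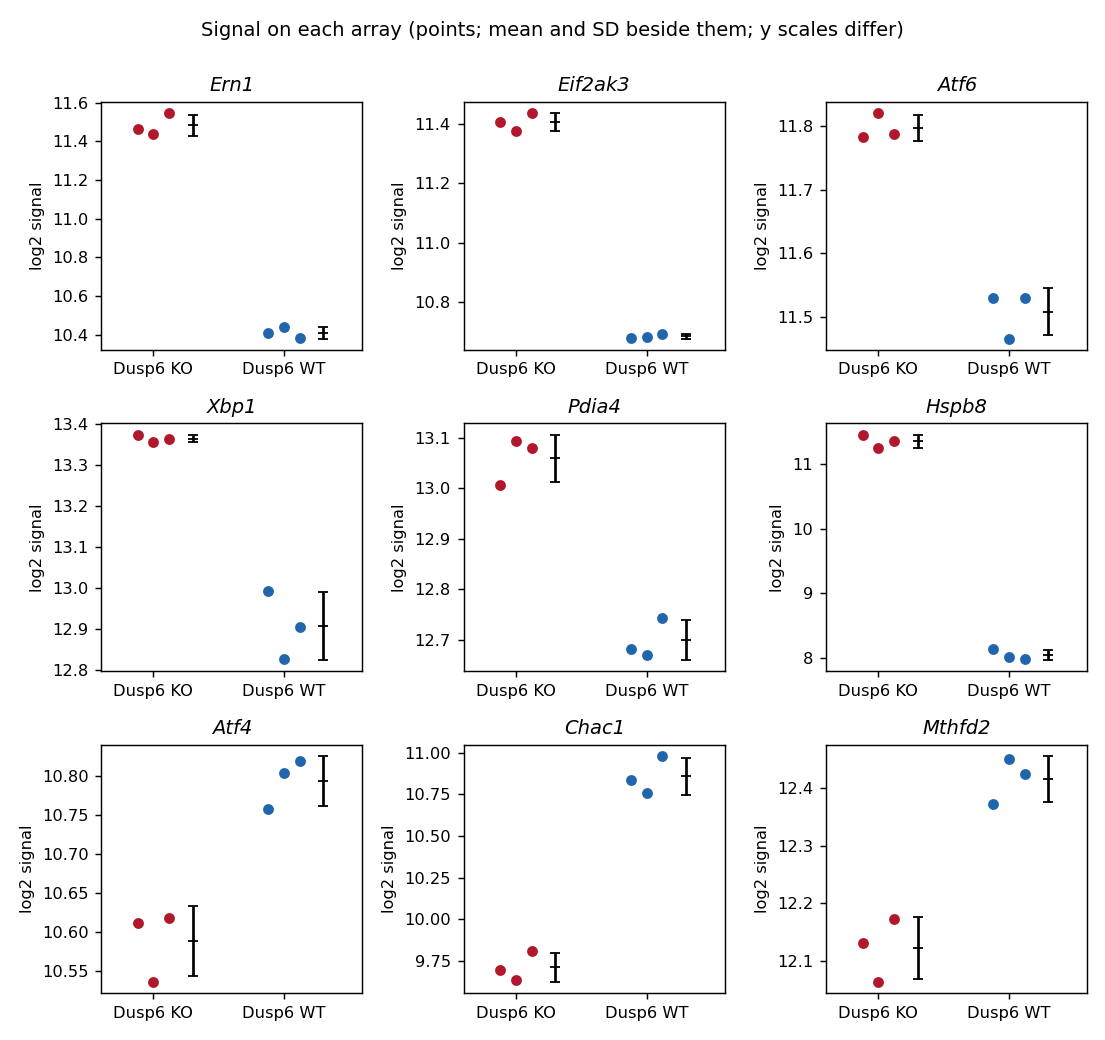
Log2 signal on each array (points, Dusp6 KO in red on the left and Dusp6 WT in blue on the right) with the mean and SD of 3 arrays beside them, for 9 called members; the y scales differ. In each panel the 3 KO points lie all above (Ern1, Eif2ak3, Atf6, Xbp1, Pdia4, Hspb8) or all below (Atf4, Chac1, Mthfd2) the 3 WT points.

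In the ATF4 arm most called genes fell, while Eif2ak3, a kinase gene upstream of it, was higher. Atf4 itself read 10.61, 10.54 and 10.62 on KO arrays, against 10.76, 10.80 and 10.82 on WT arrays (−0.20 ± 0.044, SE; limma adjusted p = 0.0091). The groups did not overlap, and the fall was 1.15-fold. ATF4 protein is set largely by translation, which arrays do not measure. Atf5, a related factor under the same translational control, differed by −0.12 (adjusted p = 0.16) and Ddit3, the CHOP factor of lasting ER stress, by −0.05 (adjusted p = 0.56; 95% interval −0.15 to 0.06).

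Chac1, a glutathione-degrading enzyme known as a target of ATF4, had the largest fall. It read 9.69, 9.64 and 9.81 on KO arrays, against 10.84, 10.76 and 10.98 on WT arrays, and was 2.21-fold lower (−1.15 ± 0.066, SE; adjusted p = 1.9e-06). The highest KO array lay well below the lowest WT array.

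Enzymes of amino acid and one-carbon supply gave 4 genes that fell and 0 that rose of 6, with 4 and 0 at an unadjusted p under 0.05 (limma; 15.6% and 14.9% of all genes). Mthfd2, a mitochondrial enzyme of the folate cycle, read 12.13, 12.06 and 12.17 on KO arrays, against 12.37, 12.45 and 12.42 on WT arrays (−0.29 ± 0.046; adjusted p = 0.0016). Asns, which makes asparagine, read 13.22, 13.28 and 13.28 on KO arrays, against 13.56, 13.48 and 13.60 on WT arrays (−0.29 ± 0.047; adjusted p = 0.002). These were falls of 1.23-fold and 1.22-fold, larger than the spread of either genotype.

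Shmt2, which moves a carbon unit from serine to folate in mitochondria, read 13.12, 13.05 and 13.17 on KO arrays, against 13.32, 13.26 and 13.32 on WT arrays (−0.18; adjusted p = 0.022). Phgdh, the first enzyme of serine synthesis, read 11.53, 11.51 and 11.58 on KO arrays, against 11.71, 11.66 and 11.75 on WT arrays (−0.17; adjusted p = 0.025). Both calls were near the threshold: Shmt2 lost it without KO replicate 2 (adjusted p = 0.069), WT replicate 1 (0.079) or WT replicate 3 (0.073), and Phgdh without KO replicate 1 (0.056), KO replicate 2 (0.073), WT replicate 1 (0.079) or WT replicate 3 (0.096). A further probe set that the annotation assigns to Phgdh and Gm6756 together differed by −0.20. Psat1, the next enzyme of serine synthesis, differed by 0.03 (95% interval −0.06 to 0.13) and Aldh18a1, which starts proline synthesis, by 0.02 (−0.07 to 0.11).

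Not all targets fell. Ddit4, an inhibitor of mTORC1 that other stress pathways also induce, rose: it read 11.19, 11.21 and 11.26 on KO arrays, against 10.96, 10.91 and 10.95 on WT arrays (0.28 ± 0.042; adjusted p = 0.0012). Pck2, a mitochondrial enzyme that makes phosphoenolpyruvate, read 11.92, 11.75 and 11.87 on KO arrays and 11.85, 11.89 and 11.80 on WT arrays, which overlapped (−0.0039; 95% interval −0.12 to 0.12).

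The C/EBP-ATF response element, through which ATF4 is known to act, was searched as TGATGNAA on both strands. It occurs in 1304 of 32851 windows (3.97%), in 3 of 12 genes of the ATF4 arm (Chac1, Asns and Pck2) and in 1 of 17 genes of the XBP1/ATF6 arm (Herpud1). The 4 sites are shown because their genes differ in response: Chac1 and Asns fell, while Pck2 and Herpud1 were not called. Capitals mark the motif, with 12 bases on either side, on the strand that reads TGATG, in GRCm38.p6. In the Chac1 promoter printed with the sensors the same site appears as its reverse complement.
Chac1, chr2:119351037-119351068, minus strand: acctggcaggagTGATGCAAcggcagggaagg
Asns, chr6:7693213-7693244, minus strand: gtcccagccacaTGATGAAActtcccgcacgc
Pck2, chr14:55540151-55540182, minus strand: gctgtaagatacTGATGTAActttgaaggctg
Herpud1, chr8:94386305-94386336, minus strand: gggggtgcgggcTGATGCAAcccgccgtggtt

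Among 31 further ATF4 targets and amino acid response genes, 7 fell and 4 rose (22.6% and 12.9%, beside 10.2% and 9.66% of all genes). Their median difference was −0.052. The 4 largest differences were all falls. Cth, the enzyme that makes cysteine from cystathionine, read 8.89, 8.79 and 8.93 on KO arrays, against 9.51, 9.71 and 9.73 on WT arrays (−0.78 ± 0.066, SE; limma adjusted p = 2.6e-05). Gpt2, a mitochondrial alanine aminotransferase, fell by 0.58 (adjusted p = 9.9e-05), the growth factor gene Vegfa by 0.44 (0.0011) and Psph, the last enzyme of serine synthesis, by 0.34 (0.008). The pseudokinase gene Trib3, often used as a marker of the ATF4 response, differed by −0.07 (adjusted p = 0.28), a gene chosen after its value was seen. Of 11 aminoacyl-tRNA synthetase genes in the list 2 fell, Cars and Lars, and 0 rose, with 4 lower and 0 higher at an unadjusted p under 0.05 (limma; 15.6% and 14.9% of all genes). Lars lost its call without WT replicate 3 (adjusted p = 0.062). The 4 that rose were Got1, Sesn2, Atf3 and Fgf21, and the count was 1 to 4 with 1 array left out (1 without KO replicate 3 or without WT replicate 1), with Got1 called each time.

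The list of eIF2alpha kinases, phosphatase subunits and eIF2B gave 1 higher and 1 lower of 13 measured (7.69% each, beside 9.66% and 10.2% of all genes). Eif2ak2, the kinase that senses double-stranded RNA and is itself induced by interferon, rose by 0.24 (adjusted p = 0.0033). Eif2b3, a subunit of the exchange factor eIF2B, fell by 0.16 (adjusted p = 0.044), and its call was lost without any 1 array except KO replicate 3 (adjusted p from 0.088 to 0.137).

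In the heat shock arm a single gene stood apart. Hspb8, a small heat shock protein that works with Bag3 to send misfolded proteins to autophagy, read 11.45, 11.24 and 11.35 on KO arrays, against 8.14, 8.01 and 7.99 on WT arrays, and was 9.84-fold higher (3.30 ± 0.062, SE; limma adjusted p = 1.1e-09). It had the largest difference of all 38 measured genes. Its partner Bag3 read 7.85, 7.73 and 7.72 on KO arrays and 7.74, 7.81 and 7.72 on WT arrays, which overlapped (0.01; 95% interval −0.11 to 0.12). The other small heat shock protein of the list, Hspb1, differed by −0.03 (−0.12 to 0.07). The deposited table has no detection calls, so whether the signals of Bag3 and Hspb1, or of Hspb8 on WT arrays, lie above background was not tested.

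Dnajb1, the cochaperone that loads clients onto cytosolic HSP70, fell. It read 10.72, 10.64 and 10.77 on KO arrays, against 10.94, 10.94 and 10.90 on WT arrays (−0.21 ± 0.046; adjusted p = 0.0096). The remaining HSF1 targets were not called, and their genotypes overlapped: Hsp90aa1, the inducible cytosolic HSP90, differed by −0.03 (95% interval −0.12 to 0.06), Hsph1, a nucleotide exchange factor for HSP70, by −0.03 (−0.14 to 0.08), and the stress-induced HSP70 gene Hspa1a by −0.01 (−0.15 to 0.12). Hspa1a has a near-identical neighbour, Hspa1b, and a probe set that the annotation gives to both differed by 0.18 without reaching the threshold (adjusted p = 0.080 over all probe sets), so their signals are uncertain.

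Hspa8, the constitutive cytosolic HSP70, gave probe sets that disagree. The brightest read 14.31, 14.37 and 14.30 on KO arrays and 14.30, 14.30 and 14.31 on WT arrays, which overlapped (0.02; adjusted p = 0.81). A second one differed by 0.016. The third read 14.38, 14.45 and 14.44 on KO arrays, against 13.59, 13.62 and 13.69 on WT arrays, a difference of 0.79 (adjusted p = 0.00012 over all probe sets, limma). With the mean of all 3 probe sets Hspa8 was called higher (0.27; adjusted p = 0.0012), and the heat shock arm then counted 2 genes higher instead of 1. The 3 probe sets of Hsp90aa1 differed by −0.031, −0.024 and −0.0068, and the 2 of Hspb1 by −0.027 and −0.016. The heat shock element, searched as GAANNTTCNNGAA on both strands, occurs in 0.60% of windows. Of the 6 genes of this arm that have a window, 1 holds it, Hsph1, after its start. For each motif a gene was counted if any of its windows held the letters.

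Of 45 other cytosolic chaperone and heat shock genes, 4 rose and 6 fell (8.89% and 13.3%), near the shares of all genes, with a median of −0.009. Hspb6, another small heat shock protein, fell by 0.56 (adjusted p = 0.00012), while Hspa2, an HSP70 of germ cells, rose by 0.52 (2e-05). Fkbp5, a cochaperone of steroid receptors, fell by 0.26 (0.0013). Hspa12a fell by 0.24 (0.02) but lost its call without KO replicate 3 (adjusted p = 0.078), WT replicate 2 (0.071) or WT replicate 3 (0.057). With 1 array left out the count was 1 to 4 higher (1 without KO replicate 2, KO replicate 3, WT replicate 1 or WT replicate 2) and 2 to 5 lower (2 without WT replicate 2). Of 15 mitochondrial chaperones and proteases, 4 were lower and 0 higher at an unadjusted p under 0.05 (limma), against 15.6% and 14.9% of all genes. By the adjusted p 2 fell and 0 rose (13.3% and 0%, beside 10.2% and 9.66% of all genes). The proteases Htra2 (−0.19; adjusted p = 0.044) and Clpp (−0.18; 0.011) were those that fell; Htra2 lost its call without any 1 array except KO replicate 1 (0.051 to 0.139), and Clpp without WT replicate 1 (0.052).

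**Figure D4:**
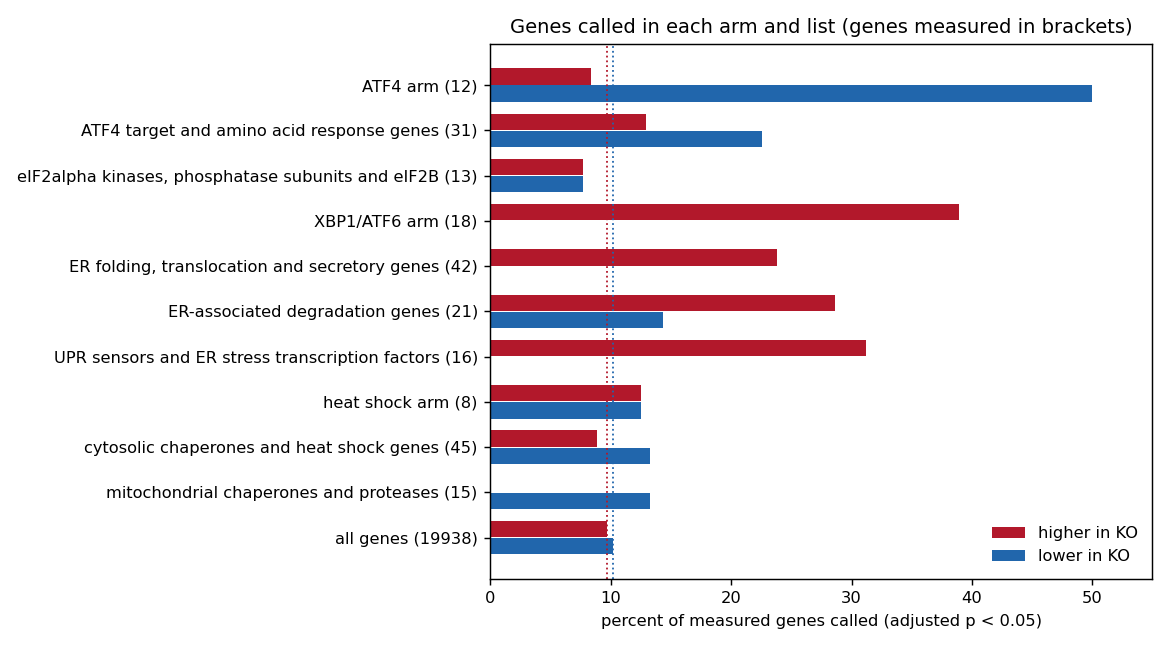
Percent of measured genes called higher in KO (red) and lower in KO (blue) in each arm and each further list, with the number of genes measured in brackets. Dotted lines mark the shares over all 19938 genes (9.66% higher and 10.2% lower). The arm and lists of the ER lie right of the red line, as do the further ATF4 target list and the heat shock arm. The ATF4 arm lies furthest right of the blue line. The further ATF4 target, ER-associated degradation, cytosolic and mitochondrial lists and the heat shock arm also lie right of the blue line.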

How the data were processed

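Total RNA from 6 samples was hybridised to Affymetrix arrays. The deposited values are log2 signals, 1 per probe set and array, that the authors made with RMA and Partek 6.5, per the submitters' processing notes. RMA corrects background, equalises the arrays and summarises probes. The version and settings of RMA were not given in the sources used here. Values from 3.23 to 14.83 with array medians of 8.38 to 8.42 show the log2 scale. Precision is limited by the number of arrays (median SE of a difference 0.051).

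Of 35556 probe sets 21789 carried 1 symbol in the platform annotation, 1621 several and 12146 were unnamed here. The brightest probe set stood for each of 19938 genes. Each gene was tested across all genes with limma 3.58.1 (R 4.3.3; functions lmFit then eBayes, a model with genotype alone) and Benjamini-Hochberg adjustment, which was also tested on simulated data. Groups and replicate numbers came from the sample titles.

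The members, the 7 further pathway lists, the 6 marker lists and the motifs were chosen with earlier results of these data known, so counts are descriptions and no list was tested. Values of each array are given for members that were called or differed by at least 0.25; of each further list up to 4 called genes with the largest differences are named, other names and values being chosen after the data were seen. Promoter sequences are RefSeq's (GRCm38.p6). Alternatives covered normalization, centring, dim genes, probe set choice, the variance model, each array left out and the replicate number as a block.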

Additional observations from a re-analysis of the deposited data

How the results depend on the processing

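Under 14 alternative settings, no called member changed sign, but the uncalled members Pck2, Pdia6, Syvn1, Hspa8, Hspa1a and Bag3 did in some. Of the 16 called members, 12 kept their call in every setting. The 4 others, Phgdh, Shmt2, Hspa5 and Edem1, had adjusted p-values of 0.019 to 0.025, and Phgdh, Shmt2 and Hspa5 were also lost when every probe set was tested (0.057, 0.057 and 0.056), a setting that adds unnamed probe sets. Dnajb11 was gained without dim genes (adjusted p = 0.045 and 0.029), and Dnajb11 and Herpud1 with the trend and robust options (0.028 and 0.043). The heat shock arm counted 2 higher with the mean of a gene's probe sets, through Hspa8. Over the 7 further pathway lists the total of 30 higher and 19 lower became 19 and 11 when every probe set was tested. With 1 array left out it was 16 to 25 higher and 10 to 16 lower, lowest without KO replicate 3 (16 higher) and WT replicate 1 (10 lower), while the members gave 7 to 10 higher and 5 to 7 lower, the XBP1/ATF6 arm 5 to 8 higher and the ATF4 arm 4 to 6 lower. The median difference of all genes lay between −0.011 and 0.0097 in every setting. The labels do not say whether the replicate numbers pair the samples. The deviations of same-numbered arrays correlated at 0.010, −0.117 and 0.053, and those of differently numbered arrays at −0.152 to 0.133. Deviations from a mean of 3 arrays cannot decide the question. With the number as a replicate block all 16 called members kept their call, and all genes gave 1681 higher and 1764 lower. The signals have no detection calls, so dim members cannot be told from background.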
